A study of Rattus norvegicus with 6 samples.

Results

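The imprinted Dlk1-Dio3 locus of the rat encodes one of the largest groups of clustered microRNAs (miRNAs) in mammals. Of its miRNAs, 7 were followed here: miR-127-3p (probe set MIMAT0000833_st), miR-134-5p (MIMAT0000840_st), miR-136-5p (MIMAT0000842_st), miR-154-5p (MIMAT0000856_st), miR-299a-5p (MIMAT0000901_st), miR-323-3p (MIMAT0000550_st) and miR-329-3p (MIMAT0000566_st). They were selected by miRBase accession, which forms the probe set ID, and make up 7 of the 728 mature rat miRNA probe sets and of the 1277 probe sets in all. The names used are those given with the accessions. The deposited files pair names with 22 listed miRNAs alone, and 0 of the 7 are among these. The study measured cardiac stem cells (CSCs), progenitor cells grown from hearts of 4-week-old Sprague Dawley rats. The CSC+Exo group received exosomes, small extracellular vesicles precipitated from bone marrow mesenchymal stem cells (MSCs) at passage 4, in the medium for 3 days, and the CSC group was grown without them. Each group had 3 arrays (Affymetrix miRNA, version 4.0), numbered 1 to 3, and no label says whether these were separate cultures, so each p-value rests on array-to-array spread that may be technical alone. No array of CSCs given precipitate without vesicles is among the groups. The arrays hold no mRNA, and the named miRNAs include no heart or progenitor marker, so the cell label was not checked against markers.

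Imprinted genes are expressed from the copy inherited from one parent. At Dlk1-Dio3 the paternal copy expresses the protein-coding genes Dlk1, Rtl1 and Dio3, and the maternal copy expresses non-coding transcripts, among them Meg3, small nucleolar RNAs and the miRNAs. The miRNAs are thought to be processed from long maternal transcripts, so many of them are expected to be made together, and in adult animals they are best known from brain. A mature miRNA guides silencing complexes to mRNAs mainly through its seed, bases 2 to 8 from the 5′ end.

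In the RefSeq annotation of the GRCr8 assembly, 59 miRNA genes lie between Dlk1 and Dio3 on chromosome 6, and the locus spans 916.4 kb from the start of Dlk1 to the end of Dio3. The hairpins of all 7 miRNAs were found there on the plus strand. Mir127 (134328454 to 134328550) and Mir136 (134331335 to 134331416) lie within the span of Rtl1, a retrotransposon-derived gene to which both are antisense in mouse. Mir299 (134545069 to 134545131), Mir323 (134546944 to 134547029) and Mir329 (134547913 to 134548009) lie within the non-coding gene LOC102555254. Mir134 (134570313 to 134570385) and Mir154 (134574352 to 134574435) lie within the next non-coding gene, LOC120103623. Mir299 and Mir154 bound a stretch of 29.4 kb, while the whole set from Mir127 to Mir154 covers 246.0 kb.

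**Figure D1:**
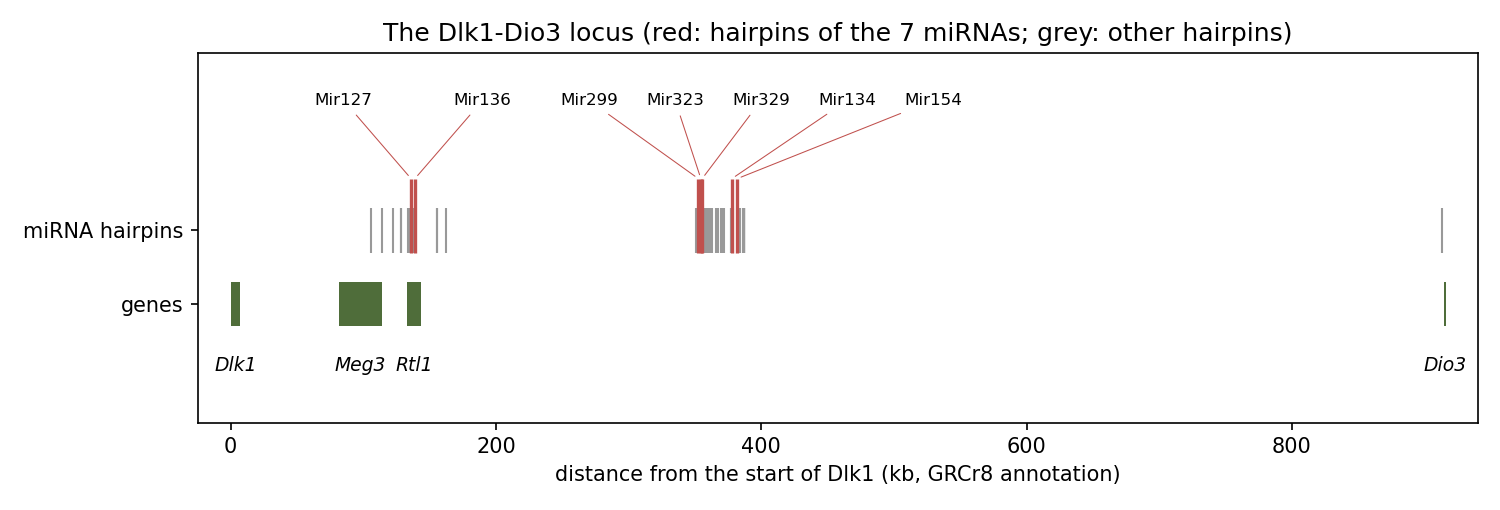
Map of the locus, with the distance from the start of Dlk1 in kb on the horizontal axis. Green boxes are the genes Dlk1, Meg3, Rtl1 and Dio3, and vertical lines are the miRNA hairpins of the RefSeq sequence table, red for the 7 described here. Of the red lines, 2 fall on Rtl1 and 5 in the dense cluster between Rtl1 and Dio3.

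RefSeq gives the mature sequence of 6 of the 7. They are shown 5′ to 3′ with the seed in capitals, because the seed decides which miRNAs can be grouped by predicted target. Coordinates are those of the mature miRNA on the plus strand of chromosome 6 in GRCr8.
miR-127-3p (chr6:134328510-134328531): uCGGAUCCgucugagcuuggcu
miR-134-5p (chr6:134570320-134570341): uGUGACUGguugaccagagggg
miR-154-5p (chr6:134574366-134574387): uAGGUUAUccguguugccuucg
miR-299a-5p (chr6:134545075-134545096): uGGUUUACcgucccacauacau
miR-323-3p (chr6:134546994-134547014): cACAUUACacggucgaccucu
miR-329-3p (chr6:134547973-134547994): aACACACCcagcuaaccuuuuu

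The 6 sequences carry 6 different seeds, so no grouping by shared seed was possible within the set. Their GC content runs from 40.9% in miR-329-3p to 59.1% in miR-127-3p and miR-134-5p. Among all RefSeq mature rat miRNAs, the seeds of miR-127-3p, miR-134-5p, miR-154-5p and miR-323-3p occur in no other miRNA. The seed of miR-299a-5p recurs in miR-299b-5p of the same locus, and that of miR-329-3p in miR-362-3p on the X chromosome.

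For 5 of the 7 miRNAs the SD between arrays of a group was larger than the difference between the groups, the exceptions being miR-299a-5p and miR-323-3p. For miR-127-3p the signal on both arrays numbered 3, with and without exosomes, was far below that on the other 4 arrays, and 3 further members were also lowest on those 2 arrays. Exosome treatment moved none of the 7 past the test: with limma and Benjamini-Hochberg adjustment over all 728 mature miRNAs, 0 of the 7 had an adjusted p under 0.05, where 0 of the 728 (0%) did. The smallest adjusted p was 0.310, for miR-299a-5p, and the largest was 0.992, for miR-154-5p. Signals here are bulk values per array, in which fewer cells of a type and less miRNA per cell cannot be told apart.

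miR-127-3p, known in mouse for repressing the Rtl1 mRNA to which it is complementary, was the brightest of the 7. Its log2 signal was 6.48, 6.23 and 2.20 on CSC+Exo arrays 1, 2 and 3, and 5.07, 5.92 and 2.46 on CSC arrays 1, 2 and 3. The groups overlapped, and both arrays numbered 3 stood 2.62 log2 below the lowest of the other 4. That gap was the widest of this kind among the 728 mature probe sets.

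The group means of miR-127-3p were 4.97 ± 2.40 with exosomes and 4.48 ± 1.80 without (log2, SD, n = 3). The difference was 0.49 ± 1.40 log2 (SE), or 1.40-fold, with a 95% interval from -2.90 to 3.88 and a limma adjusted p of 0.931. The spread therefore leaves room for a large change in either direction. Its SD within groups, 2.12 log2, ranked 2 of 728, where the median probe set had 0.24 log2.

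**Figure D2:**
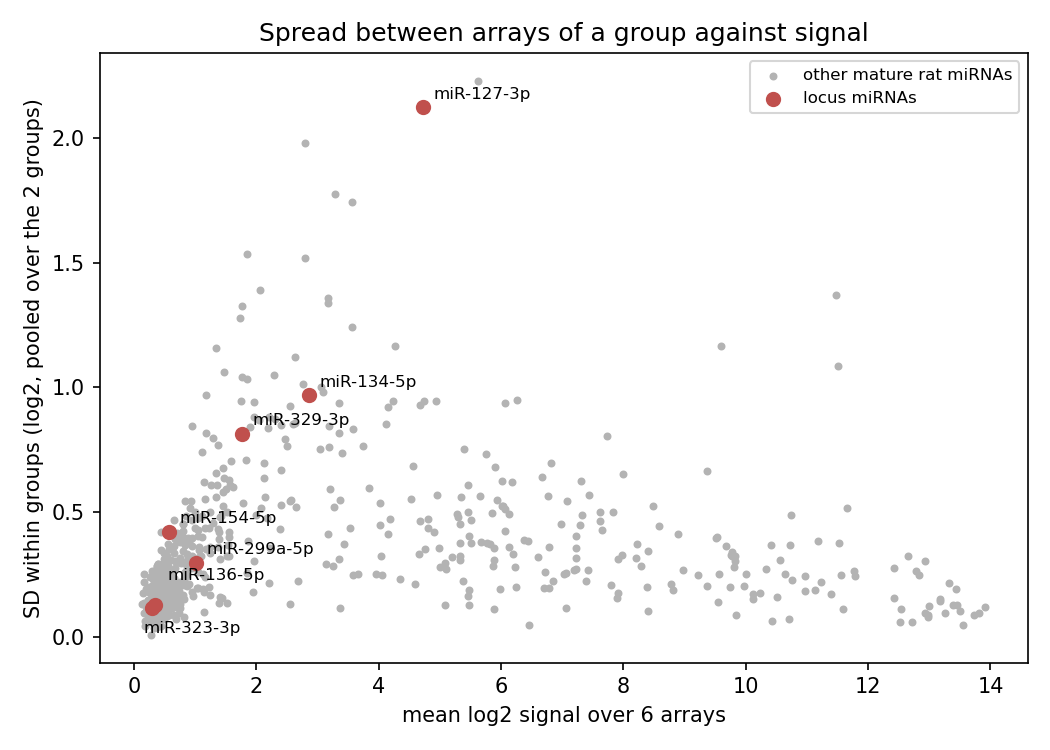
Spread between arrays of a group, as the SD within groups in log2, against the mean log2 signal over the 6 arrays, for all 728 mature rat miRNA probe sets (grey points) and the 7 locus miRNAs (red). miR-127-3p sits near the top of the plot at 2.12, while miR-136-5p and miR-323-3p lie among the dim probe sets at 0.12.

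Without both arrays numbered 3, an alternative chosen after the data were seen, the difference of miR-127-3p was 0.86 ± 0.32 log2 (SE), or 1.81-fold, with an unadjusted p of 0.0477 and an adjusted p of 0.236 in limma. In that fit 9 of the 728 had an adjusted p under 0.05, none of them among the 7. Single arrays decided the value: it was 1.87 without CSC+Exo replicate 3, -0.52 without CSC replicate 3, -0.26 without CSC+Exo replicate 1 and -0.14 without CSC+Exo replicate 2, and in none of these fits was the adjusted p under 0.05.

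miR-134-5p, known in rat hippocampal neurons for restricting dendritic spine size by repressing Limk1, showed the same array order at its low end. Its log2 signal was 3.87, 3.46 and 1.66 on CSC+Exo arrays 1, 2 and 3, and 2.45, 3.53 and 2.22 on CSC arrays 1, 2 and 3. As for miR-127-3p, CSC+Exo 3 was the lowest array, followed by CSC 3 and CSC 1, and CSC+Exo 1 was the highest. Its group means of 2.99 ± 1.17 and 2.73 ± 0.70 log2 (SD, n = 3) differed by 0.26 ± 0.64 log2 (SE; limma adjusted p = 0.917). The difference was 0.67 ± 0.41 log2 (SE) without both arrays numbered 3 (limma adjusted p = 0.473).

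miR-329-3p, which like miR-134-5p is known from activity-dependent dendrite growth in rat neurons, had log2 signals of 2.14, 1.71 and 1.14 on CSC+Exo arrays 1, 2 and 3. On CSC arrays 1, 2 and 3 they were 1.85, 2.91 and 0.83. The 2 arrays numbered 3 were again the lowest, and CSC 2 was the highest. The group means, 1.66 ± 0.50 with exosomes and 1.86 ± 1.04 without (log2, SD, n = 3), differed by -0.20 ± 0.54 log2 (SE; limma adjusted p = 0.931). Without both arrays numbered 3 the difference was -0.46 ± 0.40 log2 (SE; limma adjusted p = 0.621).

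The seed that miR-329-3p shares is shown here because its other holder, miR-362-3p, is on the authors' list of differential miRNAs and was measured on the same arrays.
miR-362-3p (chrX:17926526-17926547, plus strand, GRCr8): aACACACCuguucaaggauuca
Read from the 5′ end, the 2 sequences have the same base at 12 of 22 positions. Signals of miR-362-3p were 3.58, 4.39 and 4.13 log2 on the CSC+Exo arrays and 2.58, 3.00 and 1.58 on the CSC arrays. Its exosome group lay wholly above the untreated one, as for 15.9% of the 728, and the difference was 1.65 ± 0.40 log2 (SE; limma adjusted p = 0.248). The authors' list was made from these same arrays, so this difference is not independent of the choice of miR-362-3p. The difference of miR-329-3p was -0.20. The 2 differences were not tested against each other.

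miR-154-5p, from the same non-coding gene span as miR-134-5p, was dim on every array, at 0.95, 0.50 and 0.25 log2 on CSC+Exo arrays 1, 2 and 3 and at 0.50, 1.09 and 0.15 on CSC arrays 1, 2 and 3. Both arrays numbered 3 were the lowest here too, though the whole range was 0.94 log2. The groups overlapped almost fully and differed by -0.02 ± 0.30 log2 (SE; limma adjusted p = 0.992).

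Over the set, both arrays numbered 3 lay below the other 4 for 4 of the 7 miRNAs, miR-127-3p, miR-134-5p, miR-154-5p and miR-329-3p. This order was found for 76 of the 728 mature probe sets (10.4%). Both arrays numbered 1 were lowest for 1 of the 7, miR-136-5p, beside 4.67% of the 728, and both arrays numbered 2 for 0 of the 7, beside 3.3%. Both arrays of one number were highest for 0 of the 7, beside 6.46%, 4.81% and 4.95% of the 728 for numbers 1, 2 and 3. The order was noticed in these values and was not itself tested. For miR-154-5p it is an order among signals that all lay under the highest signal called not detected in the authors' deposited table, 1.46 log2, and for miR-329-3p both signals on the arrays numbered 3 lay under it. The 4 come from both ends of the set, within Rtl1 and within the distal cluster. A limma fit that also held the replicate number gave an F test of that number for each member. Its adjusted p was 0.140 for miR-127-3p, 0.704 for miR-134-5p, 0.778 for miR-154-5p and 0.704 for miR-329-3p, none under 0.05.

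The medians, the counts of signals of at least 5 and the hybridization controls did not set both arrays numbered 3 apart together. In the correlations, however, each of these 2 arrays was the best match of the other, by margins that were small and not tested. Over the mature probe sets, CSC+Exo 3 correlated at 0.980 and 0.981 with CSC+Exo 1 and 2, below its 0.986, 0.9879 and 0.9882 with CSC 1, 2 and 3. CSC 3 correlated at 0.9882 with CSC+Exo 3, beside 0.9873 with CSC 2 and 0.982 with CSC 1, and less with CSC+Exo 1 and 2. CSC+Exo 1 and 2 correlated at 0.994 with each other and at 0.974 to 0.986 with the other arrays. CSC 3 had the lowest median of the 6 arrays, 0.74 log2 beside 0.78 to 0.88, and 162 signals of at least 5, beside 168 to 182 on the others. CSC+Exo 3 lay inside those ranges, at 0.87 log2 and 175 signals. Over the 171 mature probe sets whose mean reached 5, the median deviation from the mean of the 6 arrays was 0.02 on CSC+Exo 3 and -0.24 on CSC 3, and it was -0.25 on CSC 1. The deviations of miR-127-3p were -2.52 on CSC+Exo 3, -2.27 on CSC 3 and 0.35 on CSC 1. The median deviation of the 27 probe sets of the hybridization controls was -0.10 on CSC+Exo 3, 0.36 on CSC 3 and -0.32 on CSC 1. No label says what the number marks, and the part of a shared culture, day or batch in the pattern was not tested.

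**Figure D3:**
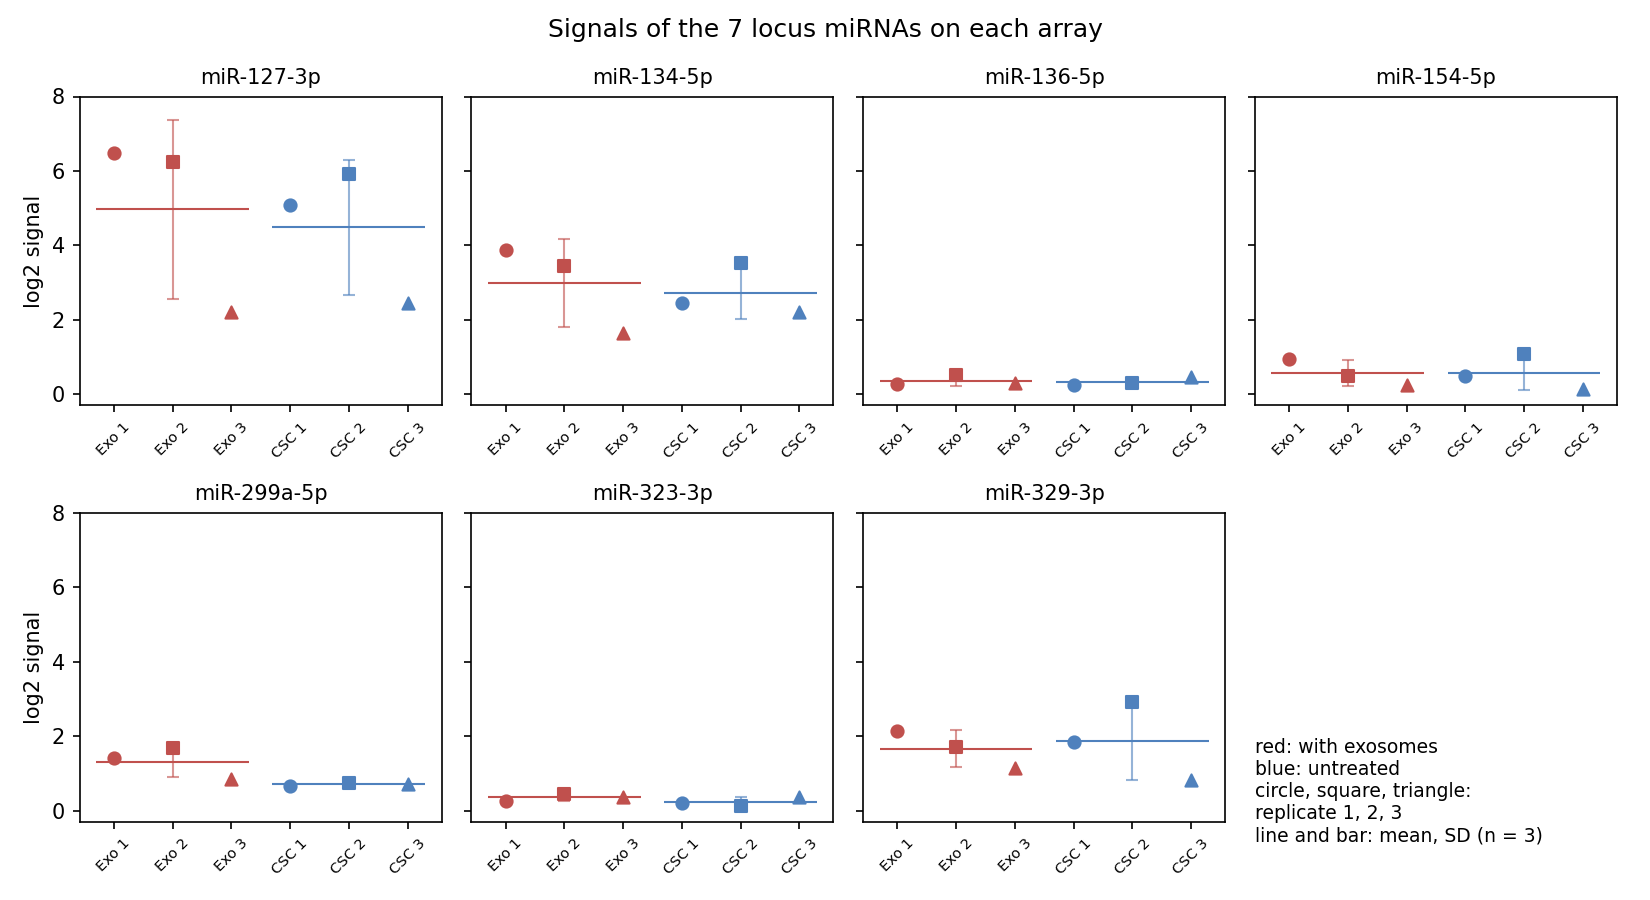
Log2 signal of each of the 7 miRNAs on each array, red for CSC+Exo and blue for CSC, with the marker shape giving the replicate number and the line and bar the group mean and SD (n = 3). The triangles, the arrays numbered 3, are lowest in both groups for miR-127-3p, miR-134-5p, miR-154-5p and miR-329-3p.

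Unnamed probe sets elsewhere on the array followed miR-127-3p closely. The rule for likeness, a mean log2 signal of 5 or more, admitted none of the 7, so the minimum was lowered to 2 after the values were seen, which left 257 other mature probe sets. Likeness was the root mean square difference over the 6 arrays between profiles centred on their own means. The nearest to miR-127-3p was MIMAT0003201_st at 0.26 log2, with signals of 4.60, 4.39 and 0.77 on the CSC+Exo arrays and 3.05, 3.68 and 0.32 on the CSC arrays. The second was MIMAT0003192_st at 0.30 log2, with 4.72, 4.47 and 1.26 against 3.61, 4.38 and 1.30. Both were lowest on the arrays numbered 3, as was the third nearest at 0.53 log2. Likeness was measured over these same arrays, so this order follows from how the probe sets were chosen and is no separate result. The files name none of the 3 probe sets nearest to miR-127-3p, and whether they belong to the locus is not known here. The lowered minimum also admitted miR-134-5p, whose 3 nearest probe sets lay at 0.39, 0.40 and 0.40 log2. Of these, the first and second were lowest on the arrays numbered 3, and the third was not.

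miR-299a-5p was the single member whose groups did not overlap, at signals near the bottom of the scale. Its log2 signal was 1.41, 1.67 and 0.85 on CSC+Exo arrays 1, 2 and 3, and 0.67, 0.75 and 0.71 on CSC arrays 1, 2 and 3. All 3 exosome arrays lay above all 3 untreated arrays, the CSC+Exo array numbered 3 by the least. This stands beside 15.9% of the 728 that lay wholly above and 3.71% that lay wholly below with exosomes.

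The group means of miR-299a-5p were 1.31 ± 0.42 and 0.71 ± 0.04 (log2, SD, n = 3), a difference of 0.60 ± 0.22 log2 (SE). No fold is given, because 5 of its 6 signals, all 3 untreated ones among them, lay under 1.46 log2, the highest signal called not detected in the authors' deposited table. It was the single member with an unadjusted p under 0.05, at 0.0348, beside 14.6% of the 728 in either direction and 12.1% in the same one, and it did not pass correction (limma adjusted p = 0.310). The difference was 0.83 ± 0.18 log2 (SE; limma adjusted p = 0.0956) without both arrays numbered 3. It was 0.22 log2 (limma adjusted p = 0.404) after each array was centred on its bright miRNAs, which takes 0.38 log2 off every group difference.

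The probe set of miR-299a-5p faces a near-identical neighbour. Mir299b is annotated on the opposite strand of the same stretch, and its 5p arm shares 19 bases in a row with miR-299a-5p, shown in capitals.
miR-299a-5p (chr6:134545075-134545096, plus strand, GRCr8): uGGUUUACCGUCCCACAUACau
miR-299b-5p (chr6:134545106-134545125, minus strand, GRCr8): cGGUUUACCGUCCCACAUAC
With this overlap the signal may hold both miRNAs, which was not tested. The longest stretch that any other mature rat miRNA shared with the remaining sequences was 13 bases, between miR-134-5p and miR-758-5p of the same locus.

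miR-136-5p and miR-323-3p were the dimmest of the 7 and showed little spread. miR-136-5p, antisense to Rtl1 in mouse, had 0.28, 0.53 and 0.30 log2 on the CSC+Exo arrays and 0.24, 0.30 and 0.45 on the CSC arrays. miR-323-3p, from the distal cluster, had 0.26, 0.44 and 0.37 with exosomes and 0.19, 0.11 and 0.38 without. Their groups overlapped, and the differences were 0.04 ± 0.14 and 0.13 ± 0.13 log2 (SE; limma adjusted p = 0.932 and 0.733).

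Most of the set was near the bottom of the scale. The mean over 6 arrays was below 2 for 5 of the 7, as it was for 470 of the 728, and only miR-127-3p was above 2 on every array. In the authors' deposited table, signals called not detected reached 1.46 log2 and the lowest signal called detected was 0.82. These limits rest on the 22 listed miRNAs alone, with 6 signals called not detected and 126 called detected. All signals of 3 members, miR-136-5p, miR-154-5p and miR-323-3p, lay under that 1.46, as did 5 of the 6 signals of miR-299a-5p and 2 of the 6 of miR-329-3p. Detection calls for the 7 were not used here, and a signal can be called differently on different probe sets, so no member is described as absent.

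Over the 7, the median difference was 0.13 log2, with 5 higher and 2 lower with exosomes, beside a median of 0.08 log2 over all 728, with 469 higher and 259 lower. The median was 0.04 among the 470 dimmest probe sets, those under 2, and 0.37 among the other 258. The differences ran from -0.20 for miR-329-3p to 0.60 for miR-299a-5p. The 7 did not share one direction.

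**Figure D4:**
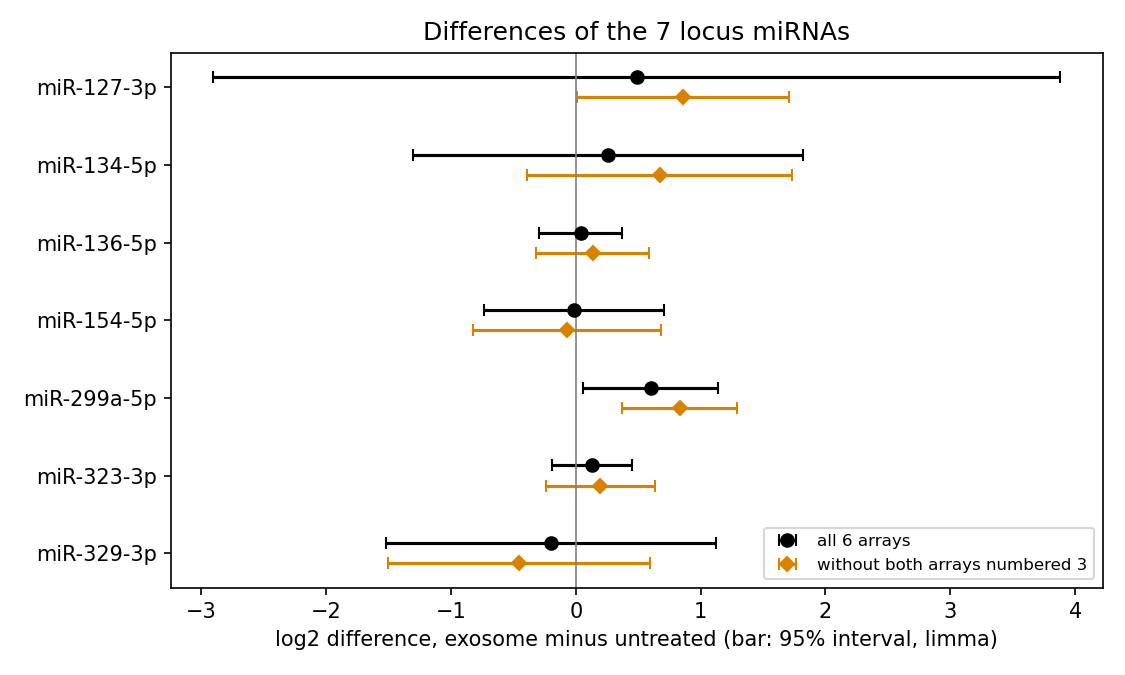
Log2 difference between exosome-treated and untreated CSCs for each of the 7 miRNAs, with limma's 95% interval, from all 6 arrays (black circles) and without both arrays numbered 3 (orange diamonds). The interval of miR-127-3p narrows from -2.90 to 3.88 down to 0.01 to 1.71, and that of miR-299a-5p lies above 0 in both fits.

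**Figure D5:**
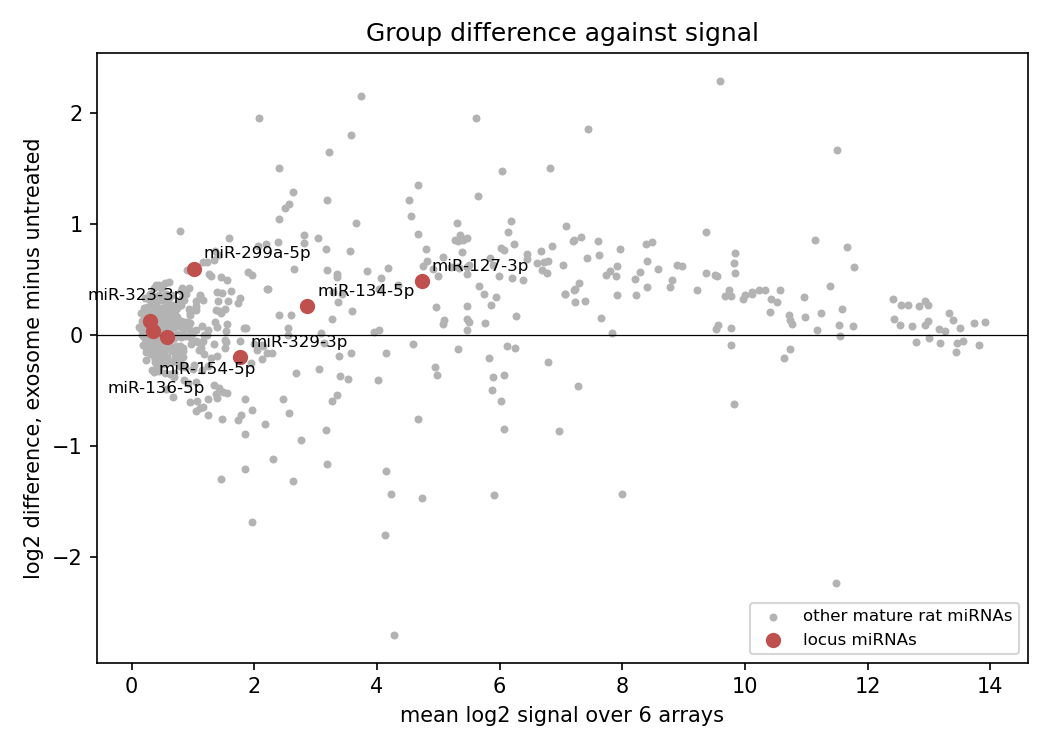
Log2 difference, exosome minus untreated, against the mean log2 signal over the 6 arrays for the 728 mature rat miRNA probe sets (grey) and the 7 locus miRNAs (red). The 7 lie between -0.20 and 0.60, inside the cloud of the other probe sets.

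The authors' deposited target table covers their 22 listed miRNAs and so holds no predicted target of the 7. It also lists Dlk1, Meg3, Rtl1 and Dio3 in 0 pairs. Whether these genes were among those searched for targets is not known here, so no conclusion is drawn from the 0 pairs.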

How the data were processed

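The deposited values are log2 signals per probe set, per the authors' note sheet. Per the submitters' processing notes they were made with Affymetrix Expression Console and MAS5, whereas the file headers give RMA and a detection call, and the sources used here do not decide between them. Per the labels' protocols, Trizol-extracted total RNA (1 ug) received biotin with the FlashTag kit. If RMA was used, the arrays were normalized together, which pulls them towards a common distribution. Value columns were matched to samples by accession, with 0 unmapped. The 728 mature rat probe sets were fitted with limma 3.58.1 (R 4.3.3; lmFit, eBayes, no trend, not robust), CSC+Exo minus CSC, Benjamini-Hochberg adjustment over all of them and a limit of 0.05. The script was tested on simulated data. Errors are SD over 3 arrays or limma's moderated SE, and the number of arrays limits the precision. Sequences and positions are RefSeq's for GRCr8. Python 3.11.15, pandas 2.3.3 and matplotlib 3.10.9 were used for counts and figures. All 7 members were to be named with every value. The other locus miRNAs, opposite arms and hairpin probe sets could not be given because their IDs are not paired with names in the files used, so the planned summary over the whole locus was not made. Members and lists were chosen with earlier results of these data known.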

Additional observations from a re-analysis of the deposited data

How the results depend on the processing

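No member had an adjusted p under 0.05 under any of the alternatives run, the lowest being 0.0577 for miR-299a-5p without CSC+Exo replicate 3; over its alternatives the difference of miR-299a-5p ran from 0.22 to 0.83 log2 and kept its direction. Centring on bright miRNAs, which lowers every group difference by 0.38 log2 and so must turn any smaller positive one, gave -0.12 for miR-134-5p, -0.34 for miR-136-5p and -0.25 for miR-323-3p. Leaving out 1 array at a time turned the sign of 5 members, not of miR-299a-5p or miR-323-3p, with ranges of -0.52 to 1.87 for miR-127-3p, -0.18 to 0.93 for miR-134-5p, -0.041 to 0.10 for miR-136-5p, -0.23 to 0.24 for miR-154-5p and -0.71 to 0.32 for miR-329-3p. After quantile normalization miR-127-3p differed by 0.11. The median over the 7 ran from -0.25 to 0.32 log2 and changed sign, at -0.25 after centring on bright miRNAs and -0.18 without CSC+Exo replicate 1. The median deviation of the 7 on each array had an SD within groups of 0.42 log2, which is not the error of a group difference.

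The count of mature miRNAs with an adjusted p under 0.05 was 0 with all arrays, where 106 had an unadjusted p under 0.05, and ran from 0 to 23 when 1 array was left out (23 without CSC+Exo replicate 3 and 1 without CSC replicate 1). Without both arrays numbered 3, chosen after seeing the data, it was 9. The count at an unadjusted p was 68 after quantile normalization, 163 after centring on bright miRNAs, 70 with a floor of 4 on the log2 signal, 58 and 61 among probe sets whose mean reached 5 and 2, and from 38 to 145 when 1 array was left out.

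Deviations from the group means correlated at 0.04, 0.32 and 0.29 between arrays of the same number, 1, 2 and 3. Between arrays of unlike numbers they correlated at -0.38 to 0.24. The rule used for pairing, that every array correlate best with its own number, was not met. CSC+Exo 1 correlated better with CSC 2, at 0.24, than with CSC 1. The main fit holds no replicate block, because no label says what the number marks, and a shared culture or day was not tested. With a replicate block the difference of miR-127-3p stayed 0.49, with an SE of 0.35 beside 1.40 without the block (limma adjusted p = 0.568). In that fit 0 of the 728 passed and 111 had an unadjusted p under 0.05. No member has a mean of at least 5, and with the floor at 4 only miR-127-3p could be tested, at 0.57 log2.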
